A study of Rattus norvegicus with 10 samples.

Results

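The liver of rats 24 h after a burn was compared with the liver of sham rats. The 4 arrays were chosen by their titles: 2 arrays of control rats given sham treatment, labelled 0 h, and 2 arrays of rats labelled 24 h. They are 4 of the 10 arrays of the series, whose other 6 arrays are of liver 1, 4 and 8 h after the burn, 2 at each time. The labels give rat liver total RNA and do not give the strain, age or sex of the rats, the size or depth of the burn, any anaesthesia or fluid treatment, or the hour of day at which tissue was taken. No sham array is labelled 24 h, so for every gene the burn cannot be told apart from elapsed time or hour of day. Whether both arrays of a group stand for different rats, a pool or a repeat of 1 RNA is not stated, so the p-values below reflect array-to-array spread alone, and that spread may be technical. Each array gave 1 deposited intensity for each of 8799 probe sets, short sets of oligonucleotides that each read 1 transcript or a group of near-identical transcripts.

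After injury elsewhere in the body, cytokines, glucocorticoids and glucagon reach the liver and change what the hepatocyte makes. Hepatocytes then secrete more of the positive acute phase proteins, among them protease inhibitors, fibrinogen and binding proteins, and less of the negative acute phase proteins, which are mainly carriers of hormones and lipids. In the rat, alpha-2-macroglobulin is the classic late and strong acute phase protein, and its gene needs the interleukin-6 signal carried by STAT3. The same hormones and cytokines also control nitrogen disposal, glucose output, lipid and bile acid synthesis and the cytochromes P450 that oxidise drugs and steroids.

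The arrays compared were alike in overall signal. Their median intensities lay between 114.5 and 126.4, and 73.9% to 76.9% of the probe sets lay above 36.4, the floor to which lower values were raised before log2 was taken. The log2 values of the sham arrays correlated at 0.961 and those of the 24 h arrays at 0.964, against 0.937 to 0.944 between a sham and a 24 h array. The control probe sets that read both ends of a transcript gave a 3' to 5' ratio of 0.825 and 0.955 for actin in sham and 0.942 and 1.16 at 24 h, and 1.18 and 1.28 against 1.39 and 1.44 for Gapdh. These ratios, a sign of RNA integrity, were higher in the 24 h arrays for Gapdh and overlapped for actin, and their part in the results was not tested. The defining genes of the hepatocyte were bright in every array: albumin (Alb) read 58002 and 85464 in sham and 60441 and 69636 at 24 h, and transthyretin (Ttr) 36988 and 38950 against 37001 and 38256. In whole tissue, fewer cells of a type and less RNA per cell cannot be told apart.

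Of 5285 probe sets tested with limma, 543 (10.3%) passed a Benjamini-Hochberg adjusted p of 0.05 and are called here. Of these, 208 (3.94%) were higher and 335 (6.34%) lower at 24 h than in sham. The called probe sets that carried 1 gene symbol named 366 genes, 131 higher and 235 lower, and no gene was called in both directions by different probe sets. Changes above 2-fold were found for 133 called probe sets that were higher and 222 that were lower, and changes above 4-fold for 32 and 51. The median log2 change over all tested probe sets was -0.044. For all 543 called probe sets both 24 h arrays lay on the same side of both sham arrays, which was also so for 54.0% of all tested probe sets. When the tested probe sets were ordered by level and cut into 3 equal parts, the share called was 4.71% in the dimmest part and 18.4% in the brightest. A fit of the 4 compared arrays alone, which has less information on the spread, called 104 probe sets, and leaving out any one of the 4 arrays left 216 to 263.

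**Figure D1:**
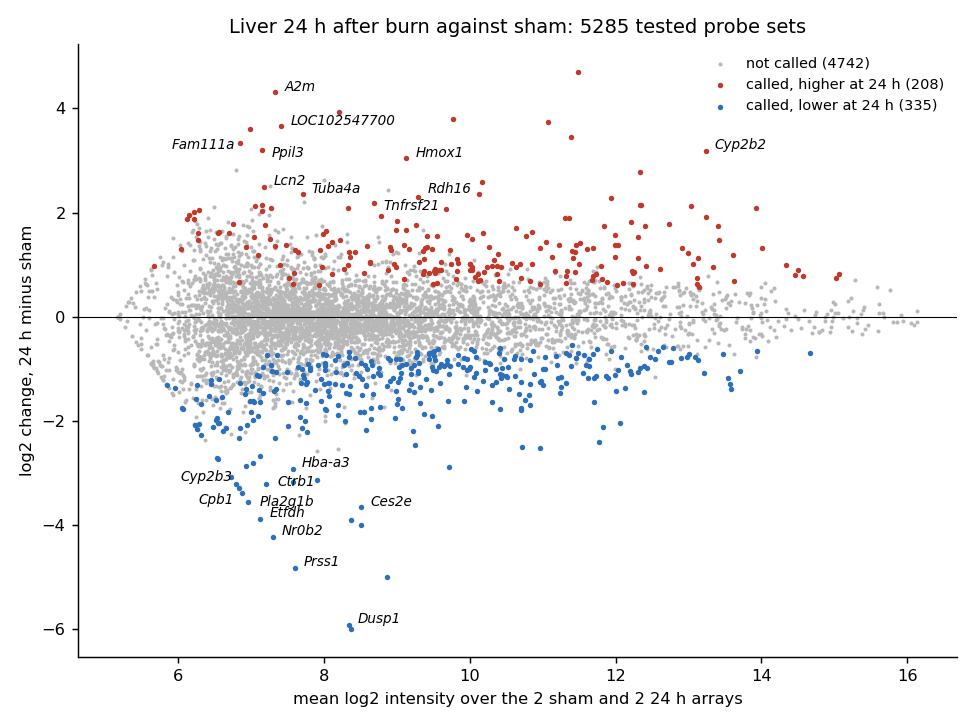
Log2 change at 24 h against sham (vertical axis) by the mean log2 intensity of the 4 arrays compared (horizontal axis) for the 5285 tested probe sets; red points are the 208 called higher and blue points the 335 called lower. The named genes are those with the 10 largest increases and 10 largest decreases, taken by each gene's probe set with the smallest p. They run from A2m at 4.31 to Dusp1 at -5.92.

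The genes with the largest increases were led by A2m, which encodes alpha-2-macroglobulin. Its probe set with the smallest p read 10.1 and 19.3 in sham and 723.8 and 718.1 at 24 h. Sham was at the floor, so the increase was at least 19.8-fold (log2 change 4.31, standard error (SE) 0.14, adjusted p = 2.4e-05). All 5 tested A2m probe sets were called higher, with log2 changes of 1.57 to 4.70. Cyp2b2, a cytochrome P450 known for its induction by phenobarbital, read 2899 and 3530 in sham and 30010 and 28172 at 24 h, an increase of 9.09-fold (log2 change 3.18, SE 0.16, adjusted p = 0.00015). Hmox1, heme oxygenase, which breaks down heme, read 249.1 and 154.2 in sham and 1518 and 1714 at 24 h (log2 change 3.04, SE 0.24, adjusted p = 0.00068). The groups of these 3 genes lay far apart, with the lowest 24 h value several times the highest sham value.

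The other genes among the 10 largest increases were mostly dim in sham. Fam111a, a nuclear protease, read 18 and 5 in sham and 395 and 339.6 at 24 h, at least 10.1-fold. Ppil3, a peptidyl-prolyl isomerase of the splicing machinery, rose 9.17-fold, and LOC102547700, an unnamed locus, 12.6-fold. Both had 1 sham array under the floor, so these folds depend on it, and the second probe set of LOC102547700 was not called (log2 change 1.54, adjusted p = 0.28). Rdh16, a retinol dehydrogenase, rose 4.92-fold, Tnfrsf21, a death receptor, 4.53-fold, and Tuba4a, an alpha tubulin, 5.09-fold. Lcn2, which binds bacterial iron carriers, read 104.1 and 25.5 in sham and 329.2 and 362.1 at 24 h (adjusted p = 0.024). Its call ended without the second sham array or without either 24 h array, with adjusted p up to 0.11, while the other 9 kept theirs with any one of the 4 arrays left out.

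With each gene read by its probe set with the smallest p, the largest decreases were led by Dusp1. This phosphatase switches off MAP kinases and is induced by stress hormones. It read 2558 and 2518 in sham and 48.1 and 13.3 at 24 h (log2 change -5.92, SE 0.21, adjusted p = 3e-05). A second probe set without values under the floor read 2808 and 2538 against 74 and 92.1, a decrease of 32.3-fold, and the third was also called. Nr0b2, the small heterodimer partner, a nuclear receptor without a DNA-binding domain that represses bile acid synthesis, read 726 and 650.6 in sham and 26.4 and 32.6 at 24 h, at least 18.9-fold lower. Its other 2 probe sets were also called lower (log2 changes -3.90 and -1.91). Ces2e, a carboxylesterase, read 1450 and 1174 in sham and 100.1 and 105.1 at 24 h, 12.7-fold lower (adjusted p = 0.003). It was already low at 1 h, at 58.1 and 35.1, and read 31.3 to 89.9 over the 1, 4 and 8 h arrays. Its 24 h level was not called against their mean (adjusted p = 0.17). In each case both 24 h arrays were below both sham arrays by a wide margin.

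Of the other genes among the 10 largest decreases, Prss1, Pla2g1b, Cpb1 and Ctrb1 are digestive enzymes of the exocrine pancreas and are described with the cell type markers. Etfdh, which passes electrons from fatty acid oxidation to ubiquinone, was at least 14.9-fold lower by 1 probe set, but its other 2 probe sets, which were brighter, were not called (log2 changes -0.10 and -0.16). Cyp2b3, a cytochrome P450, was at least 9.82-fold lower by 1 probe set and not called by the other 2 (log2 changes -0.52 and -0.77). Hba-a3, a haemoglobin chain, read 575.6 and 478.8 in sham and 131.7 and 34.9 at 24 h (adjusted p = 0.017), and with either sham array left out its call ended (adjusted p up to 0.082). Ugt2b, a glucuronosyltransferase named here after its values were seen, read 3049 and 2314 in sham and 41.8 and 40.9 at 24 h by 1 probe set (log2 change -6.01). Its 2 other probe sets gave -1.77, also called, and -0.16, not called. The probe set at -1.77 had the smallest p of the gene, so by the rule used Ugt2b is not among the 10.

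**Figure D2:**
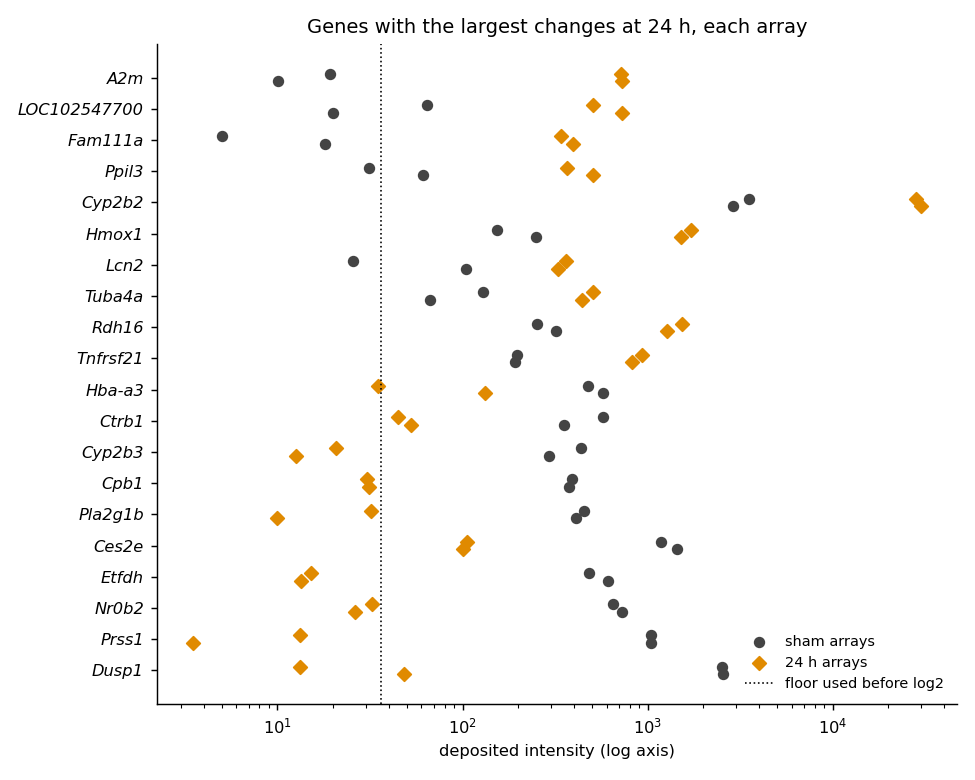
Deposited intensity on each of the 2 sham arrays (circles) and the 2 arrays at 24 h (diamonds), on a log axis, for the genes with the 10 largest increases and the 10 largest decreases; the dotted line is the floor of 36.4. The 24 h values of A2m, 723.8 and 718.1, lie far above its sham values of 10.1 and 19.3, and 6 of the 10 decreased genes had both 24 h values under the floor.

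The tested genes were also grouped in 38 lists, 28 of processes and 10 of cell types. Each gene was represented by its brightest probe set. Counted in this way, 3.40% of the 3143 tested genes were called higher and 5.98% lower, with a median log2 change of -0.049, and the counts of the lists stand against these shares. The members and lists were chosen with earlier results of these data known, so the counts are a description. No list was tested as a set. Of the 139 named called genes, 35 also had a tested probe set that was not called, and for 3 of them, Igf1, Egr1 and Eci1, it had the other sign (log2 changes 0.14, -0.05 and -0.22).

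Of the 30 positive acute phase genes tested, 9 (30.0%) were called higher and 1 lower, with a median log2 change of 0.27. Serpina3n, a serine protease inhibitor, read 7423 and 7623 in sham and 31974 and 32059 at 24 h, a 4.26-fold increase (SE 0.15 on the log2 scale, adjusted p = 0.00057). Orm1, orosomucoid, a plasma carrier of basic drugs, read 4811 and 5861 against 11753 and 13124, 2.34-fold higher. Lbp, which hands bacterial lipopolysaccharide to its receptor, rose 2.03-fold, and Agt, angiotensinogen, 2.17-fold. Kng2, a kininogen, rose 1.99-fold, and the fibrinogen chains Fgb and Fga 1.74-fold and 1.72-fold. The third fibrinogen chain, Fgg, was not called (log2 change 0.65, adjusted p = 0.059).

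Several major members of the list were not called by their brightest probe set. Haptoglobin (Hp) read 44163 and 47582 in sham and 52576 and 55905 at 24 h (log2 change 0.24, adjusted p = 0.41). The complement component C3 had a log2 change of 0.12, Serpina1 of 0.03, hemopexin (Hpx) of 0.30, C-reactive protein (Crp) of -0.25 and ceruloplasmin (Cp) of -0.17, with adjusted p from 0.34 for Crp to 0.95 for Serpina1. Dimmer probe sets of 3 of these were called: 1 of Serpina1 higher (25335 and 25937 in sham, 42682 and 43417 at 24 h, adjusted p = 0.019), and 1 each of Crp and Cp lower (log2 changes -0.96 and -0.84, adjusted p 0.042 and 0.028). The brightest Serpina1 probe set read 57109 to 67851, near the top of the range of the arrays. Stat3 itself read 36.1 and 51.9 in sham and 181 and 109.9 at 24 h (adjusted p = 0.068). Cebpb, a transcription factor of the acute phase, was the called member that fell, 1.62-fold. The calls of A2m, Serpina3n, Orm1 and Lbp held with any one array left out. Those of Fgb (adjusted p up to 0.095) and Cebpb (up to 0.2) ended with any of the 4 arrays left out, those of Kng2 (up to 0.072) and Fga (up to 0.16) without either sham array or the second 24 h array, and that of Agt (up to 0.085) without the first sham array or either 24 h array.

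Promoters are shown for a pair of acute phase genes, because the list is known for control by C/EBP and STAT3 factors. RefSeq windows of GRCr8, the 250 bases before the start of the gene, were at hand for 117 of the 139 called genes named under the fixed rules, and none was used for A2m. The motifs, searched on both strands, were TTNNGNAA for C/EBP and TTCNNNGAA for STAT3, and capitals mark their matches. Positions are those of the first base of a match, counted from the start of the gene. Serpina3n (chr6:129088142-129088391, plus strand) has C/EBP matches at -218 and -56 and a STAT3 match at -123. Fgb (chr2:170700876-170701125, minus strand) has C/EBP matches at -141 and -68 and a STAT3 match at -223.
Serpina3n: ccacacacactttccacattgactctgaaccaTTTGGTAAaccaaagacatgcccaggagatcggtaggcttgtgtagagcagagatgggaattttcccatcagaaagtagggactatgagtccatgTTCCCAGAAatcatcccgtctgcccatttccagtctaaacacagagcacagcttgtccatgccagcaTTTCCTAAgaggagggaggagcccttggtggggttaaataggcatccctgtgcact
Fgb: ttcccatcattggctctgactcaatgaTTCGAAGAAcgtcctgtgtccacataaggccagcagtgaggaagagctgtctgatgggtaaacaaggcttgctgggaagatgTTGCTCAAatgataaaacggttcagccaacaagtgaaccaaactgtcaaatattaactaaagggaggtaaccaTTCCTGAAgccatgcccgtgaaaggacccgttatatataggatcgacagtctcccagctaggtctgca
Of the 9 acute phase genes called higher, 6 had a window. All 6 genes held the C/EBP motif and 3 the STAT3 motif in at least 1 window. Fga had more than 1 window, and only 1 of them held the STAT3 motif. Among the 33469 windows of the table, 37.2% held the C/EBP motif and 7.67% the STAT3 motif. The C/EBP motif was also in all 3 complement and coagulation genes and all 4 genes of the conjugation list called lower, while none of these held the STAT3 motif. Of the 4, 3 are of the Sult2a family and are not separate cases. A match is a run of letters and does not show that a factor binds there.

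Of the negative acute phase and carrier proteins, none of the 16 tested was called higher and 4 were called lower, with a median log2 change of -0.27. The 4 were carriers of hormones or growth factors, apart from Igf1, which is itself a growth factor. Serpina7, thyroxine-binding globulin, read 224.5 and 237.2 in sham and 72.2 and 77.7 at 24 h, 3.08-fold lower. Serpina6, the glucocorticoid-binding globulin, fell 1.92-fold, Igfals, the acid-labile subunit that holds insulin-like growth factors in plasma, 2.01-fold, and Igf1 1.65-fold. The lipid and retinol carriers did not pass: albumin had a log2 change of -0.12, transthyretin of -0.01, Rbp4 of -0.30 and Apoa1 of 0.15. The calls of Serpina7, Igfals and Igf1 ended with any of the 4 arrays left out (adjusted p up to 0.16), and that of Serpina6 without the second sham array or the first 24 h array (up to 0.088).

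Of 19 complement and coagulation genes, 3 fell and none was called higher (median log2 change -0.38). Plg, plasminogen, the precursor of the clot-dissolving protease, read 8498 and 9288 in sham and 3260 and 3276 at 24 h, 2.72-fold lower (SE 0.14, adjusted p = 0.0018). Mbl2, a mannose-binding lectin that starts complement activation, fell 2.86-fold, and Klkb1, plasma prekallikrein, 1.68-fold. The Plg call held with any one array left out. That of Klkb1 ended with any of them (adjusted p up to 0.13) and that of Mbl2 without the second array of either group (up to 0.055). Among 17 apolipoprotein and plasma lipoprotein genes none was called (median -0.15); Apob read 7882 and 9288 in sham and 13215 and 13848 at 24 h (adjusted p = 0.078). Of 16 heme and iron genes, Hmox1 alone was called (median -0.05).

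Of 38 liver transcription factors and hormone receptors tested, 8 were called lower, 2 higher and 28 not, with a median log2 change of -0.44. Cebpa, which keeps the hepatocyte differentiated, read 739.2 and 849.4 in sham and 213.5 and 193.8 at 24 h, 3.9-fold lower (SE 0.16, adjusted p = 0.00077). The forkhead factors went opposite ways: Foxa2 read 544.9 and 434 against 121.7 and 161.7, 3.47-fold lower, while Foxa3 read 335.5 and 337 against 1203 and 1070, 3.37-fold higher. Klf9, a glucocorticoid and thyroid hormone target, fell 2.75-fold. Nfib, Onecut1 and Nr5a2, a receptor that drives bile acid genes, fell 2.48-fold, 2.15-fold and 2.42-fold. Id2, which blocks helix-loop-helix factors, rose 2.45-fold. The calls of Cebpa, Foxa2, Foxa3, Klf9 and Nr0b2 held with any one array left out. Those of Onecut1 and Id2 ended with any of them (adjusted p up to 0.14), that of Nfib without either sham array or the first 24 h array (up to 0.12) and that of Nr5a2 without either sham array or the second 24 h array (up to 0.14).

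Heat shock proteins of the cytosol and mitochondria had the highest median of the process lists, 0.41 in log2 (0.26 over the 13 with a plain probe set design). Of 20 tested, 5 were called higher and none lower. Hsph1, a large chaperone that recharges Hsp70, read 256.7 and 287.7 in sham and 1015 and 918.4 at 24 h, 3.55-fold higher (SE 0.16, adjusted p = 0.00098). Cct3, a subunit of the ring chaperone for actin and tubulin, rose 2.37-fold, Hspe1, the lid of the mitochondrial chaperonin, 2.17-fold, and the co-chaperones Dnajc5 and Dnaja2 1.99-fold and 1.85-fold. The Hsph1 call held with any one array left out. Those of Cct3, Dnajc5 and Dnaja2 ended with any of them (adjusted p up to 0.13) and that of Hspe1 without the second sham array or any 24 h array (up to 0.095).

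The promoters of both heat shock genes below hold the core of the heat shock element, GAANNTTC, a palindrome, and capitals mark it. It starts at -31 in Hsph1 (chr12:10427118-10427367, plus strand) and at -60 in Hspe1 (chr9:64084077-64084326, plus strand).
Hsph1: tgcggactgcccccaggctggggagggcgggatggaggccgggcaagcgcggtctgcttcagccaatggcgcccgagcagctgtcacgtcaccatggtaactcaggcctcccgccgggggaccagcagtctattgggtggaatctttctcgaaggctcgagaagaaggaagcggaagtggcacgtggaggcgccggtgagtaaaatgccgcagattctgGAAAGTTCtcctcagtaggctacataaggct
Hspe1: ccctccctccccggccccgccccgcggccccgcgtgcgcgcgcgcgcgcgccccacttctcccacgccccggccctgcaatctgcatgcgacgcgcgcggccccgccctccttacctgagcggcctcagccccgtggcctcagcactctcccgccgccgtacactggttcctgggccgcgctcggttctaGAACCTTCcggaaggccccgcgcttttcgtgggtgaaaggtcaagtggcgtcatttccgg
Of the 5 heat shock genes called higher, 4 had a window and 2 of these held the motif, against 7.23% of all windows. The motif was not particular to genes that rose: 3 of the 4 genes of the conjugation list called lower also held it. These are Sult2a1, Sult2a2 and Sult2a6, of 1 family, with the motif at -181, -172 and -181, so they are not separate cases.

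In the endoplasmic reticulum list, 2 of 25 genes were called higher and 1 lower (median 0.06). Hspa5, the main chaperone of that compartment, read 2639 and 2533 in sham and 7477 and 6075 at 24 h, 2.61-fold higher, and Hyou1, which recharges it, rose 1.85-fold. Ppp1r15a, which restores translation after stress, fell 2.67-fold. The Hspa5 call ended without the second sham array or the first 24 h array (adjusted p up to 0.053), that of Hyou1 with any array left out (up to 0.13) and that of Ppp1r15a without either sham array or the second 24 h array (up to 0.1).

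The lists of protein synthesis and breakdown had small positive medians and few calls. Ribosomal proteins had a median of 0.39, with 4 of 39 called higher and none lower: Rpl4 rose 1.77-fold, Rps16 1.55-fold, Rpl36 1.53-fold and Rpl27a 1.49-fold. Proteasome and ubiquitin genes had a median of 0.27, with 1 of 28 called, Psmc4, which rose 1.78-fold. Mitochondrial electron transport and ATP synthase genes had a median of 0.13, with 1 of 35 called, the phosphate carrier Slc25a3, which rose 1.82-fold. Each of these 6 calls ended with any of the 4 arrays left out (adjusted p up to 0.17). Among 16 cell division genes none was called, with a median of 0.15; Pcna, the replication clamp, read 361.2 and 484.6 in sham and 606.9 and 505.7 at 24 h.

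**Figure D3:**
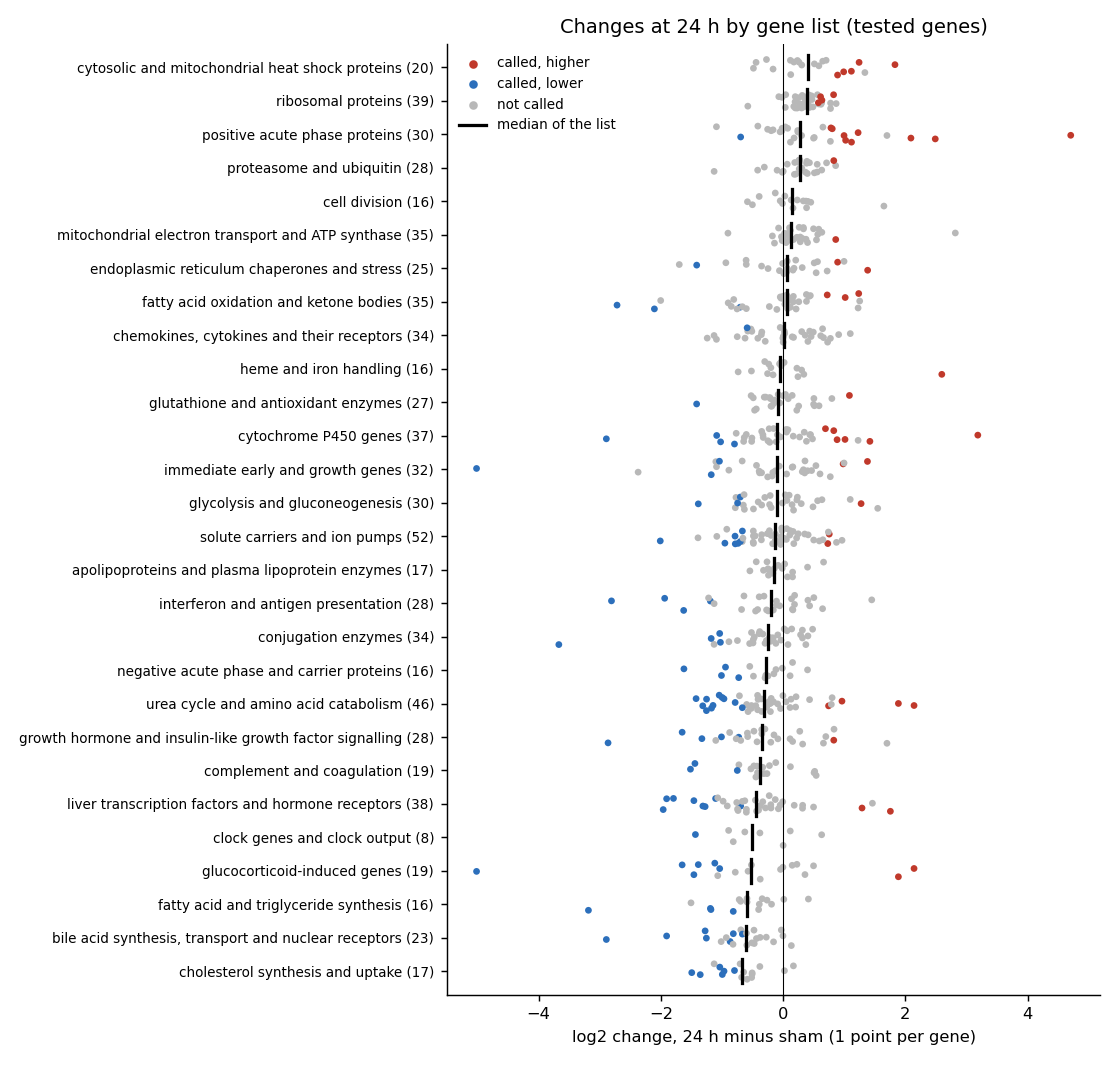
Log2 change at 24 h against sham (horizontal axis) for each tested gene (1 point per gene, spread within its row so that points can be seen) in the 28 process lists, with the number tested in brackets; red and blue points are called higher and lower, and black bars are list medians. The medians run from 0.41 for heat shock proteins to -0.68 for cholesterol synthesis and uptake.

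In amino acid breakdown, several steps fell while the first step of tryptophan breakdown and 2 steps of the urea cycle rose. Of 46 tested in the urea cycle and amino acid list, 11 were called lower and 4 higher (median -0.31). Tdo2, the first enzyme of tryptophan breakdown, read 2582 and 2387 in sham and 10095 and 11873 at 24 h, 4.41-fold higher (SE 0.16, adjusted p = 0.00062). Later enzymes of the same pathway fell: Kmo read 1970 and 2026 against 779.1 and 828.1, 2.49-fold lower, and Kynu fell 2.38-fold. Got1, the cytosolic aspartate aminotransferase, read 1493 and 1263 against 5332 and 4830, 3.69-fold higher. The urea cycle enzymes Arg1 and Asl rose 1.95-fold and 1.67-fold, while Cps1, its first enzyme, had a log2 change of -0.04.

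Sulfur and one-carbon enzymes were among those that fell. Cth, which makes cysteine from cystathionine, read 6766 and 6704 in sham and 2281 and 2762 at 24 h, 2.68-fold lower. Csad and Cdo1, both of the route from cysteine to taurine, fell 2.21-fold and 1.72-fold. Gnmt, which uses up methyl groups, fell 2-fold, and Dmgdh and Sardh, which handle the methylated glycines, 1.96-fold and 1.59-fold. Dao fell 2.25-fold, Oat 2.06-fold and Psat1 2.39-fold. The calls of Tdo2, Got1, Kmo, Cth, Dao and Csad held with any one array left out, and that of Oat ended without the second 24 h array (adjusted p 0.057). Those of Asl, Cdo1, Sardh and Psat1 ended with any array left out (up to 0.17). Those of Arg1 and Kynu ended without the first sham array or any 24 h array (up to 0.081), that of Dmgdh without the second sham array or any 24 h array (up to 0.097) and that of Gnmt without either sham array or the second 24 h array (up to 0.068).

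In the glycolysis and gluconeogenesis list 3 of 30 genes fell and 1 rose (median -0.10). Pck1, the enzyme that controls gluconeogenesis, read 20048 and 19620 in sham and 7671 and 7485 at 24 h, 2.62-fold lower (SE 0.15, adjusted p = 0.0025). Aldoa, the muscle form of aldolase, read 546.3 and 547.6 against 1378 and 1272, 2.42-fold higher. Khk, which starts fructose breakdown, fell 1.68-fold, and Slc37a4, which brings glucose 6-phosphate to the phosphatase, 1.63-fold. Khk and Slc37a4 lost their calls with any of the 4 arrays left out (adjusted p up to 0.2).

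Fatty acid and triglyceride synthesis genes had a median log2 change of -0.59. Of 16 tested, 4 fell and none was called higher. Acly, which makes acetyl-CoA for lipid synthesis, read 3494 and 3665 in sham and 1665 and 1477 at 24 h, 2.28-fold lower. Gpam, the first enzyme of triglyceride synthesis, read 671.4 and 499 against 53.9 and 75.1, 9.1-fold lower by its brightest probe set, and the acyl-CoA synthetases Acsl1 and Acsl5 fell 2.27-fold and 1.76-fold. The Acly call held with any one array left out. That of Acsl1 ended without the second 24 h array (adjusted p 0.052), and those of Gpam and Acsl5 with any of the 4 arrays left out (up to 0.19).

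The fatty acid oxidation and ketone body list went both ways, with 3 of 35 called in each direction and a median of 0.06. Cpt1a, the gate of mitochondrial fatty acid oxidation, read 1732 and 1916 in sham and 4182 and 4406 at 24 h, 2.36-fold higher. Acaa1b and Eci1, which act in the oxidation spiral, rose 2.02-fold and 1.65-fold. Bdh1, which converts acetoacetate to beta-hydroxybutyrate, read 1657 and 1486 against 376.4 and 353.2, 4.3-fold lower. Acox3, a peroxisomal oxidase of branched chains, was at least 6.57-fold lower and Decr2, which acts on unsaturated chains, fell 1.63-fold. The calls of Cpt1a and Bdh1 held with any one array left out, those of Eci1, Acox3 and Decr2 ended with any of them (adjusted p up to 0.18) and that of Acaa1b without the first sham array or any 24 h array (up to 0.075).

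Cholesterol synthesis and uptake had the lowest median of the process lists, -0.68, with 6 of 17 genes called lower and none higher. Fdft1, squalene synthase, read 2988 and 2546 in sham and 1000 and 957.6 at 24 h, 2.82-fold lower (SE 0.16, adjusted p = 0.0025). Insig1, a sterol sensor that is itself a target of the sterol response, read 3989 and 3808 against 1596 and 1454, 2.56-fold lower. Nsdhl, Fdps, Acat2 and Cyp51, 4 enzymes of the pathway, fell 1.74-fold to 2.05-fold. The Fdft1 call held with any one array left out. Those of Fdps, Acat2 and Cyp51 ended with any of them (adjusted p up to 0.16), that of Nsdhl without the second array of either group (up to 0.056) and that of Insig1 without either sham array or the second 24 h array (up to 0.059).

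In the bile acid list, 7 of 23 genes fell and none was called higher (median -0.60). Cyp7a1, the rate-limiting enzyme of bile acid synthesis, read 2289 and 2309 in sham and 293.8 and 326.4 at 24 h, 7.42-fold lower (SE 0.18, adjusted p = 0.00029). Nr0b2, a repressor of Cyp7a1, and Nr5a2, an activator of it, both fell, as given above. Hsd3b7, Akr1d1 and Amacr, later enzymes of the pathway, fell 1.82-fold, 1.76-fold and 2.39-fold, and Slc10a1, which takes up bile salts from blood, 1.59-fold. The calls of Cyp7a1 and Nr0b2 held with any one array left out. Those of Akr1d1 and Slc10a1 ended with any of them (adjusted p up to 0.12), that of Amacr without the second array of either group (up to 0.052) and that of Hsd3b7 without either sham array or the second 24 h array (up to 0.081).

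The cytochrome P450 list, which also holds the reductase Por, moved both ways: 6 of 37 genes were called higher and 4 lower, with a median of -0.09. After Cyp2b2, the largest increase was that of Por, the reductase that feeds electrons to all microsomal P450s, which read 1819 and 1765 in sham and 5229 and 4388 at 24 h, 2.67-fold higher. Cyp2b15, Cyp2a2, the male-specific Cyp2c11 and Cyp3a23-3a1 rose 2.02-fold, 1.84-fold, 1.78-fold and 1.62-fold. Cyp2a1 and Cyp2j3 fell 2.12-fold and 2.03-fold, beside Cyp7a1 and Cyp51. Rat P450 genes of one subfamily are close copies, and several of these probe sets are designed to read more than 1 of them, so the member read is uncertain for Cyp2b2, Cyp2b15, Cyp2a1, Cyp2c11, Cyp3a23-3a1 and Cyp2j3. The calls of Cyp2b2 and Cyp7a1 held with any one array left out. Those of Cyp2a2, Cyp2b15, Cyp2c11, Cyp2j3 and Cyp3a23-3a1 ended with any of them (adjusted p up to 0.15), that of Por without either sham array or the first 24 h array (up to 0.071) and that of Cyp2a1 without the second sham array or any 24 h array (up to 0.079).

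The promoters of Cyp2b2 and Cyp2b3 are shown because the called probe sets of these close copies moved in opposite directions, although the 2 other Cyp2b3 probe sets were not called. Capitals mark the D-box, TTATGNAA, the site of the clock output factors, and every D-box match is also a C/EBP match. Cyp2b2 (chr1:90722031-90722280, plus strand) holds it at -224 and -87 and Cyp2b3 (chr1:90780242-90780491, plus strand) at -60, and 3.28% of all windows hold it.
Cyp2b2: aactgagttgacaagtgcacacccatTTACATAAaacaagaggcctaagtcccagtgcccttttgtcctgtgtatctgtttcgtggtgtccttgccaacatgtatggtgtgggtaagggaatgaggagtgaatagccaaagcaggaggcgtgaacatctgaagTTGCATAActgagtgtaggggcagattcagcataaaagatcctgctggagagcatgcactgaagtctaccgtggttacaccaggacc
Cyp2b3: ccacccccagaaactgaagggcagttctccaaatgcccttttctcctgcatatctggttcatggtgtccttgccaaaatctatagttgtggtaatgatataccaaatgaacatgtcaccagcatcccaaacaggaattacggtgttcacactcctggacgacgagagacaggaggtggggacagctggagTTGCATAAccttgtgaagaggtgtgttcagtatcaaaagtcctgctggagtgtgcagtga

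In the conjugation list, which also holds the carboxylesterase Ces2e, 4 of 34 genes fell and none was called higher (median -0.25). Ugt2b, described above, is not among these 4. Apart from Ces2e they were the hydroxysteroid sulfotransferases Sult2a1, Sult2a2 and Sult2a6, which fell 2.05-fold, 2.04-fold and 2.26-fold. Their probe sets are of the family design, so they may read the same transcripts and are not separate evidence. The Sult2a1 call ended without the second array of either group (adjusted p up to 0.059), that of Sult2a2 with any array left out (up to 0.088) and that of Sult2a6 without the second sham array or any 24 h array (up to 0.092). Among 27 glutathione and antioxidant genes 1 rose and 1 fell (median -0.08). Gclm, the modifier subunit of the enzyme that limits glutathione synthesis, read 1149 and 1171 in sham and 419.6 and 451.1 at 24 h, 2.67-fold lower. Txnrd1, thioredoxin reductase, rose 2.12-fold, a call that ended with any array left out (up to 0.12).

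In the growth hormone and insulin-like growth factor list, 5 of 28 fell and 1, Cyp2c11, rose (median -0.35, and -0.23 without the first 24 h array). Socs2, a feedback inhibitor induced by growth hormone, read 337.4 and 323.2 in sham and 38.8 and 53 at 24 h, 7.28-fold lower (SE 0.26, adjusted p = 0.0011). Cish, of the same family, fell 2.51-fold, a call that ended without either sham array or the second 24 h array (adjusted p up to 0.14). Igfbp1, a binding protein raised by fasting and stress, read 5990 and 5824 against 1903 and 1855, 3.14-fold lower. Igf1 and Igfals are described above.

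Of 19 genes listed as induced by glucocorticoids, 6 fell, 2 rose and 11 were not called. Their median was -0.52, but -0.20 with a higher floor, at the arrays' median, and -0.004 over the 7 genes with a plain probe set design. Those that fell were Dusp1, Igfbp1, Pck1, Klf9, Errfi1 and Sult2a1, and those that rose were Tdo2 and Got1. Errfi1, an inhibitor of the epidermal growth factor receptor, fell 2.17-fold, a call that ended without the second sham array or the first 24 h array (adjusted p up to 0.097). The same list had members not called on both sides of 0, such as the aminotransferase Tat, which read 6053 and 6476 in sham and 4453 and 4285 at 24 h (adjusted p = 0.062).

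Among 32 immediate early and growth genes, 2 rose and 3 fell (median -0.10). Egr1 read 928.8 and 967.9 in sham and 2004 and 1748 at 24 h, 1.97-fold higher, and Btg1, which restrains growth, rose 2.6-fold. Zfp36 and Zfp36l1, which destabilise messenger RNA with AU-rich elements, fell 2.06-fold and 2.26-fold, beside Dusp1. The calls of Egr1 and Btg1 ended without either sham array or the first 24 h array (adjusted p up to 0.08), that of Zfp36 with any array left out (up to 0.092) and that of Zfp36l1 without the second array of either group (up to 0.079). Of 8 clock genes and outputs, 1 fell, Nr1d1, the clock repressor Rev-erb alpha (median -0.50, and -0.31 without the second 24 h array). It read 848.5 and 826 in sham and 328.1 and 292 at 24 h, 2.7-fold lower, and the sham and 24 h labels carry no hour of day, so time of day and burn cannot be told apart. The clock output gene Dbp was not called (log2 change -0.63, adjusted p = 0.21).

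In the interferon and antigen presentation list, 4 of 28 fell (14.3%, against 5.98% of all tested genes) and none was called higher (median -0.20). Irf7, the master regulator of type I interferon, read 341.9 and 352.6 in sham and 44.5 and 55.2 at 24 h, 7.01-fold lower (SE 0.17, adjusted p = 0.00028). RT1-S3, a rat class I histocompatibility gene with close copies, fell 3.09-fold, Mx2, an interferon-induced antiviral protein, 3.83-fold, and Psmb8, a subunit of the immunoproteasome, 2.28-fold. The calls of Mx2 and Psmb8 ended with any array left out (adjusted p up to 0.15). Of 34 chemokine, cytokine and receptor genes, only Mif was called, 1.5-fold lower (median 0.01), and it lost its call with any array left out (up to 0.18). Il1b read 177.2 and 173.8 in sham and 180.8 and 170.5 at 24 h.

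Of 52 solute carriers and ion pumps, 7 fell and 2 rose (median -0.13). Slc25a30, a mitochondrial carrier, read 655.7 and 606.4 in sham and 159.4 and 153.7 at 24 h, 4.03-fold lower. The water and glycerol channels Aqp9 and Aqp8 fell 1.72-fold and 1.73-fold, and the amino acid carriers Slc7a2 and Slc6a13 1.94-fold and 1.67-fold. The pumps Atp2a2 and Atp1b1 rose 1.69-fold and 1.66-fold. The Slc25a30 call held with any one array left out, that of Slc7a2 ended without the first sham array or any 24 h array (adjusted p up to 0.12), and those of Aqp8, Aqp9, Slc6a13, Atp2a2 and Atp1b1 ended with any of them (up to 0.17).

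Among the cell type markers, the list with the most calls was that of the pancreas, an organ the labels do not name. Of 25 tested pancreas markers, 10 fell and none was called higher, with a median of -0.97 (-1.50 over the 18 with a plain probe set design). Their summed level was 13997 and 13643 in sham and 5266 and 5825 at 24 h. Prss1, trypsinogen, read 1040 and 1039 in sham and 3.5 and 13.2 at 24 h, at least 28.6-fold lower. Amy2a3, pancreatic amylase, read 3015 and 3236 against 788 and 1021, and Pnlip, pancreatic lipase, 1293 and 1271 against 308 and 254.7. Pla2g1b and Cpb1 were at least 11.9-fold and 10.5-fold lower, and Ctrb1 fell 9.3-fold. Cela2a, Cela1 and Cpa1 fell 3.68-fold, 3.58-fold and 4.64-fold, and Prss3b was at least 4.27-fold lower. The insulin genes, of the endocrine pancreas, were not called: Ins2 read 1454 and 1055 in sham and 1442 and 1197 at 24 h. The part of pancreatic RNA in the other results was not tested. The calls of Cela1 (adjusted p up to 0.16, without either sham array or the first 24 h array) and Prss3b (up to 0.077, with any array left out) did not hold.

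The other cell type lists gave at most 3 calls each. Hepatocyte markers had a median of -0.01 over 9 genes and a summed level of 272180 and 315210 in sham and 279536 and 302907 at 24 h, with Fgb called higher and Pck1 lower. Kupffer cell and phagocyte markers had a median of -0.40 over 12 genes (-0.26 without the second sham array), with Hmox1 called higher and 2 lower, and a summed level of 8518 and 9012 against 8963 and 8874. Clec4f, a lectin of Kupffer cells, fell 1.76-fold, a call that ended with any array left out (adjusted p up to 0.077), and Cyba, a subunit of the phagocyte oxidase, 4.01-fold, a call that ended without the second sham array or any 24 h array (up to 0.091). In the bile duct list 1 of 11 was called (median -0.07): Krt18, a keratin that hepatocytes share, read 2266 and 2468 in sham and 6726 and 7310 at 24 h, 2.96-fold higher, while its partner Krt8 had a log2 change of -0.32 (adjusted p = 0.26). Red cell markers had a median of -0.30 over 8 genes with Hba-a3 alone called. No call was made among 3 neutrophil (median 0.43, down to 0.20 without the first 24 h array), 8 lymphocyte (0.11), 24 stellate cell and fibroblast (-0.19), 10 endothelial (0.04) and 12 muscle and adipose markers (0.05).

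**Figure D4:**
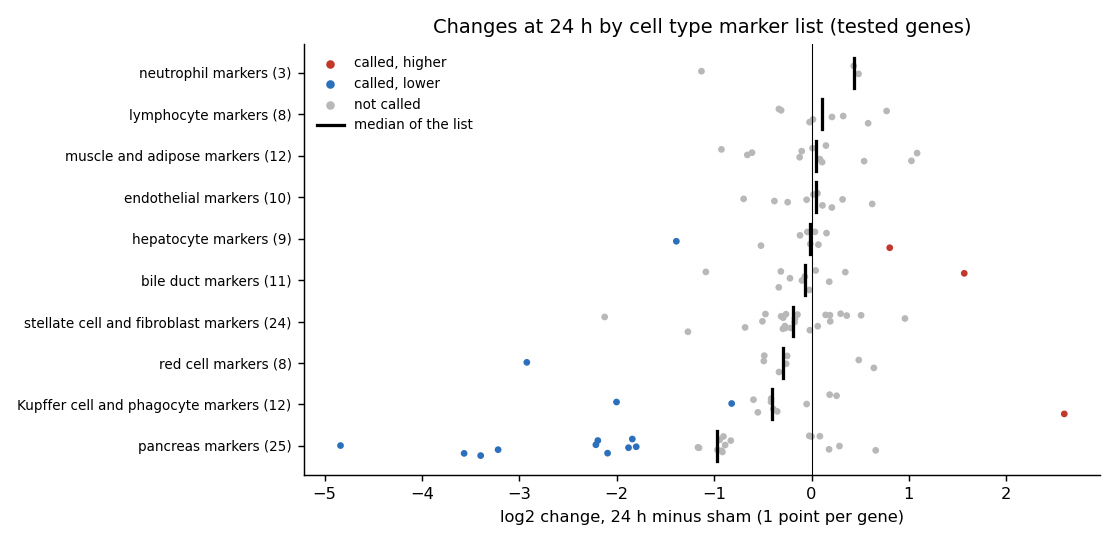
Log2 change at 24 h against sham for each tested gene in the 10 cell type marker lists, drawn as for the process lists, with the number tested in brackets. The pancreas markers, with a median of -0.97, lie to the left, while the hepatocyte markers centre on -0.01.

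To see which levels at 24 h differed from the whole earlier course, the 24 h arrays were also compared with the mean of the 1, 4 and 8 h groups in the same fit. This comparison shares the 24 h arrays, but not the sham arrays, with the comparison above. It called 268 probe sets higher (5.07%) and 367 lower (6.94%), with a median log2 change of 0.004 over all tested. By the brightest probe set of a gene, 4.58% of genes were called higher and 6.78% lower. Leaving out either 24 h array left 200 or 212 calls in all.

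Among genes with both 24 h arrays above all 6 earlier burn arrays, the largest increases were those of Tuba4a, A2m, Ppil3, Dusp6 and Nap1l1, whose order near the floor has no meaning. Tuba4a read between 25.3 and 35, under the floor, on all 6 earlier burn arrays and 440.6 and 506.2 at 24 h, at least 3.70 higher in log2 (adjusted p = 0.00021). A2m read 37.1 and 21.7 at 1 h, 17.9 and 26.9 at 4 h, 131 and 126.7 at 8 h and 723.8 and 718.1 at 24 h (adjusted p = 2e-05), a difference whose size the floor limits. Ppil3 lay between 36 and 60.1 on the earlier burn arrays, near sham, and at 507.1 and 369 at 24 h. Nap1l1, a histone chaperone, lay between 32.1 and 125.8 earlier and at 295.6 and 328.3 at 24 h, and did not pass against sham (adjusted p = 0.069). Dusp6, a phosphatase of the ERK kinases, showed another pattern: 782.1 and 655.4 in sham, 51.2 to 186.6 on the 6 earlier burn arrays, and 944.8 and 837 at 24 h. Its 24 h level was above every earlier burn array (7.99-fold over their mean, adjusted p = 0.006) but was not called against sham (log2 change 0.31, adjusted p = 0.77).

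Among genes with both 24 h arrays below all 6 earlier burn arrays, the largest decreases were those of Ctrb1, Dusp1, Hba-a3, Etfdh and Cyp7a1. Dusp1, by its probe set without values under the floor, read 2977 and 3542 at 1 h, then 687.7 and 704.4 at 4 h and 1152 and 956.7 at 8 h, before 74 and 92.1 at 24 h. Cyp7a1 read 4701 and 3833 at 8 h and 293.8 and 326.4 at 24 h (log2 difference from the earlier mean -3.20, adjusted p = 7.1e-05). The Etfdh probe set read 430.8 to 767.9 up to 4 h, 181.3 and 127.2 at 8 h and 13.4 and 15.2 at 24 h. Igfbp1 read 13408 and 11710 at 1 h and 15098 and 15906 at 4 h, above sham. It was called lower than sham at 24 h (log2 change -1.65, adjusted p = 0.0011), and differed from the earlier mean by -2.55 (adjusted p = 8e-05). Cebpa stayed between 649.4 and 888.9 on all earlier burn arrays and read 213.5 and 193.8 at 24 h (-1.85, adjusted p = 0.00035).

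Acute phase genes differed in their course. Orm1 was far higher at 8 h, at 40689 and 44442, than at 24 h, at 11753 and 13124, and Lcn2 read 4130 and 4017 at 8 h against 329.2 and 362.1 at 24 h. Serpina3n read 20339 and 24066 at 4 h, 16598 and 14902 at 8 h and 31974 and 32059 at 24 h (log2 difference from the earlier mean 1.15, adjusted p = 0.0023). Of the 30 acute phase genes, 2 were called higher and 2 lower than at the earlier times. Among heat shock proteins 7 of 20 and among proteasome genes 8 of 28 were called higher than at the earlier times and none lower. Hspa5 lay between 1960 and 3523 on the earlier burn arrays, around its sham level, and at 7477 and 6075 at 24 h (log2 difference 1.33, adjusted p = 0.004). Cholesterol genes were lower than at the earlier times in 8 of 17 cases and glucocorticoid-induced genes in 8 of 19.

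**Figure D5:**
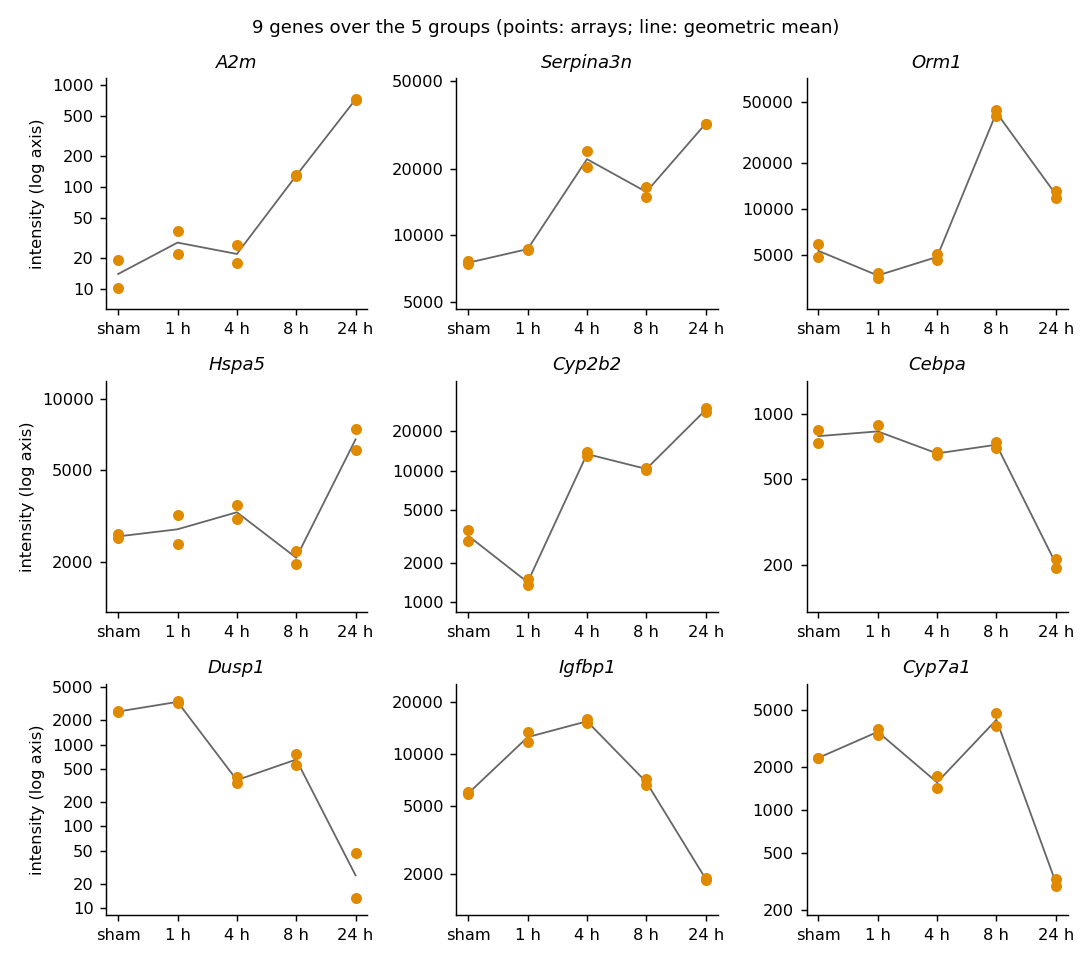
Deposited intensity on a log axis for 9 genes on the 2 arrays of each group (points), with the geometric mean of each group (line), in sham and 1, 4, 8 and 24 h after the burn; spacing on the horizontal axis is not to scale. A2m and Cyp2b2 are highest at 24 h, Orm1 is highest at 8 h, at 40689 and 44442, and Cebpa, Dusp1, Igfbp1 and Cyp7a1 are lowest at 24 h.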

How the data were processed

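Rat liver RNA was hybridised to 10 single-colour Affymetrix arrays, 2 in each of 5 groups set by the titles. The deposited values are linear intensities, scaled by the authors: tested on the values, the trimmed means of the 10 arrays lie between 500.9 and 501. The authors' software was not given in the sources used here. Of the 8799 probe sets, 7018 carried 1 gene symbol in the platform annotation, 308 several and 1473 none, and only the first kind is named.

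Intensities were raised to at least 36.4 (each array's 25th percentile, median over arrays) before log2 was taken. The 5285 probe sets above the array median on at least 2 arrays were fitted with limma 3.58.1 in R 4.3.3, with 5 groups in 1 model. P-values are two-sided and Benjamini-Hochberg adjusted over all tested probe sets, with 0.05 as the threshold. Where the dimmer group had both values under this floor, the fold is written as "at least". The number of arrays limits the precision. On simulated arrays of the same size, with 5285 probe sets, 39% of 100 changed 2-fold and 69% of 100 changed 4-fold were called. Another 10 calls were false, made among the probe sets left unchanged.

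Named were the genes with the 10 largest called increases and decreases (by the probe set with the smallest p), the called members and the 4 smallest p of each of 38 lists, and the 5 largest differences each way from the earlier times with both 24 h arrays beyond all 6 earlier arrays. The members and lists were chosen with earlier results of these data known. Alternatives were the normalization, floor, filter, variance model, arrays fitted, probe set design, a replicate block and each array left out. Promoter windows came from RefSeq GRCr8.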

Additional observations from a re-analysis of the deposited data

Results flagged for a closer look

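The following genes were called one way against sham at an earlier time after the burn and the other way at 24 h. For each, the difference between 24 h and the mean of the 1, 4 and 8 h groups was itself tested in the limma fit, and each difference passed. The changes at the separate times share the sham arrays.

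Digestive enzymes of the pancreas made up 9 of the 16 genes. Prss1 had a log2 change of 2.20 at 1 h and -4.84 at 24 h, and its 24 h level differed from the earlier mean by -4.06 (adjusted p = 2e-05). The difference from the earlier mean was -3.1 for Pla2g1b, -3.34 for Cpb1, -4.05 for Ctrb1, -2.24 for Prss3b, -2.0 for Cela2a, -2.24 for Cpa1, -2.62 for Pnlip and -1.66 for Amy2a3. All 9 were called higher than sham at 1 h, with log2 changes from 1.55 for Amy2a3 to 3.24 for Ctrb1. All 9 were also called lower than sham at 4 h, from -1.95 for Amy2a3 to -4.84 for Prss1. At 8 h only Ctrb1 and Pnlip among them were called, both higher, at 1.71 and 1.05.

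Among liver genes, Cyp2b2 was lower at 1 h (log2 change -1.17) and higher at 24 h (3.18), and differed from the earlier mean by 2.32 (adjusted p = 0.00017). Cyp7a1 was higher at 8 h (0.89, adjusted p = 0.048), and its difference was -3.2. Igfbp1 was higher at 1 h (1.08) and 4 h (1.39), and its difference was -2.55. Irf7 was lower at 4 h (-2.63), higher at 8 h (1.03) and lower at 24 h (-2.81), and its difference was -2.23. Klf9 and Cebpb were higher at 4 h (1.06 and 1.02), and their differences were -1.62 and -1.3. Slc7a2 was higher at 4 h (1.10), and its difference was -1.36.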

How the results depend on the processing

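No named called gene changed direction under the alternatives run, while the medians of 11 lists close to 0 (heme, glycolysis, P450, glutathione, immediate early, cytokine, hepatocyte, lymphocyte, bile duct, endothelial and muscle) changed sign under at least 1. The 543 calls at 24 h against sham became 830 with an intensity trend and robust variance, 104 with only the groups compared in the fit, 298 of 3398 with plain probe set designs and 216 to 263 with 1 array of the comparison left out. They stayed within 1.5 times with quantile normalization, other floors, no filter and without the 1 h arrays (415 to 729). Against the earlier times, the 635 calls became 367 with plain probe set designs and 200 to 547 with 1 array left out, the lowest without the first 24 h array. Fewer probe sets or arrays enter the plain-design and left-out fits; the cause of the rise to 830 was not tested. Of 143 named called probe sets, 56 kept their call with each array left out and 35 under every alternative. With only the groups compared in the fit, 38 of these 143 kept their call. With the replicate number as a block, 583 and 665 probe sets were called. Replicate numbers were not taken to pair the arrays: the deviations of same-numbered arrays correlated at 0.061 between sham and 24 h and at 0.011 to 0.17 over the 10 pairs of groups, above 0.1 in 5 of them, and pairing required this in all. With the higher floor 315 probe sets were called higher in place of 208. Values near the floor limit the folds of dim genes: 22 called probe sets, 6 higher and 16 lower, had both arrays of the dimmer group under it.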

Other observations

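Genes outside the lists, chosen after their values were seen, are given here as values. Plin2, which coats lipid droplets, read 2991 and 2938 in sham and 10091 and 9851 at 24 h, 3.36-fold higher (limma, adjusted p = 0.0018), and its dimmer probe set was not called (log2 change 1.17, adjusted p = 0.052). Of 19 tested genes with an Eif symbol, 5 were called higher and none lower, with a median log2 change of 0.72 and 18 positive values. The symbol also covers Eif2ak2, Eif2ak3 and Eif4ebp1, which are not initiation factors themselves. Their log2 changes were 1.14, 0.72 and 0.49, and none of them was called. Over all tested genes 3.40% were called higher and 5.98% lower, and 46.6% of all tested probe sets had a positive change. The group was put together after its values were seen, so its counts are a description. The 5 were Eif2b2, Eif2b4, Eif2s1, Eif3d and Eif3m, with log2 changes from 0.69 for Eif3d to 1.19 for Eif3m.

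Single genes are given next, with no claim about the groups they belong to. Nop58, which guides ribosomal RNA modification, read 197.9 and 111 in sham and 549.3 and 389.1 at 24 h. Ncl, nucleolin, read 1040 and 1102 against 2208 and 2147 by 1 probe set and was not called by another (log2 change 0.67, adjusted p = 0.18). Plrg1, of the splicing machinery, read 422.3 and 375.2 against 1616 and 1732. At 8 h the called Ncl probe set read 794.3 and 840 and at 4 h 1976 and 2037.

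Among receptors and hormone enzymes called lower, Dio1, which activates thyroid hormone, read 581 and 333.8 in sham and 130.2 and 75.9 at 24 h by 1 probe set. Its brighter probe set read 774.4 and 1199 against 867.2 and 830.6 and was not called (log2 change -0.18, adjusted p = 0.69). Avpr1a, the liver vasopressin receptor, read 1057 and 927.2 against 244.7 and 266.3, and the adrenergic receptor Adra1b 463.7 and 499.6 against 175.8 and 215.4. Hsd17b2, which inactivates sex steroids, read 7878 and 8249 against 1540 and 1501, and was lower still at 4 h, at 597.6 and 810.2.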
